A study of Mus musculus with 21 samples.

Results

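Tumours of the genotype NPK that carry no month in their labels (8 arrays) were compared with NPK tumours labelled as taken at 1 month (3 arrays, called NPK_1Month here), 11 of the 21 arrays of the series. The arrays were chosen by their titles alone. Both groups are mouse prostate tumours taken from the anterior prostate, with the genotype given as NPK in both; the labels place the NPK_1Month tumours at an early stage of tumour formation and give no stage or time for the NPK tumours, and they give neither strain nor animal age. Per the labels no treatment applied. In the literature the letters NPK stand for a mouse in which an inducible Cre, driven by a prostate epithelial promoter, switches on PI3-kinase and RAS signalling together, so both groups carry the same engineered alleles; genes of the engineered alleles are not analysed here. Since the labels do not say whether the arrays came from separate animals, the spread behind each p-value is that between arrays and may be technical. A further 8 arrays hold tumours of the genotype NP, in which only the PI3-kinase pathway is activated, and 2 hold NPK tumours taken at 3 months (NPK_3Month, labelled late stage); they helped to set the spread in the fit and are given below only as side values.

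The anterior lobe of the mouse prostate lies against the seminal vesicle, a gland that secretes abundant proteins into semen, and near striated muscle of the urethra and pelvic floor, so that dissected tissue can hold RNA of all of these. On a bead array each gene is read by 1 or more probes, short fixed sequences that pair with different stretches of its transcripts, and several arrays share 1 glass chip. A change of RNA level should move every probe that reads the changed transcripts, while probes that pair with different stretches or transcript forms need not move together. A gene was therefore taken as supported where at least 2 of its detected probes passed the test in the same direction and none passed in the opposite one.

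The groups did not share a chip. The NPK arrays lay on 3 chips, with replicates 1 to 5 on the first, 6 and 7 on the second and 8 on the third, and the 3 NPK_1Month arrays lay on another chip that held only the NPK_3Month arrays besides. Chip and group therefore cannot be told apart, and no value within a chip exists for this comparison. Between 15855 and 18226 of 45126 probes were detected on the NPK arrays, against 19458 to 20138 on the NPK_1Month arrays. The noise SD of the intensities was 11.01 to 26.1 units on the NPK arrays and 8.59 to 10.1 units on the NPK_1Month arrays. With 8 and 3 arrays, the small number of arrays sets how precise these values can be.

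The tumours also differed in markers of neighbouring tissue. The mean log2 level of 14 tested skeletal muscle genes was 9.01 in NPK replicate 4 and 8.42 in NPK replicate 5, and 5.63 to 6.94 in the other 6 NPK arrays, against 9.85, 9.78 and 9.24 in the NPK_1Month arrays. All 8 NPK arrays thus lay below all 3 NPK_1Month arrays. In bulk tissue, fewer muscle cells and less RNA per muscle cell cannot be told apart. The mean log2 level of 10 seminal vesicle secretory genes ran from 6.36 to 14.80 over the NPK arrays, with a median of 9.51, against 13.87, 14.62 and 10.82 in the NPK_1Month arrays. The seminal vesicle ranges overlapped, with NPK replicates 1 and 5 within and replicate 3 above the NPK_1Month range and NPK replicates 7 and 8 the lowest. The mean log2 level of 22 luminal and general epithelial genes, which mark the labelled tissue, was high in both groups, at 10.52 to 10.95 in NPK, against 10.68, 10.45 and 10.89 in NPK_1Month.

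**Figure D1:**
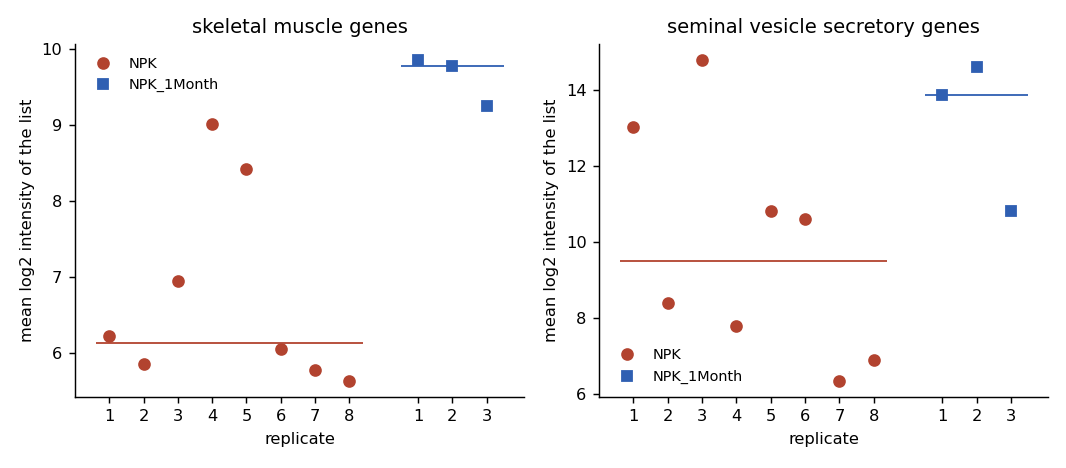
Mean log2 intensity of the tested skeletal muscle genes (left) and seminal vesicle secretory genes (right), 1 point per array, with NPK (circles, replicates 1 to 8) left of NPK_1Month (squares, replicates 1 to 3) and lines at the group medians. Muscle levels of all NPK arrays lie below those of NPK_1Month, with NPK replicates 4 and 5 nearest at 9.01 and 8.42, while seminal vesicle levels overlap.

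Across the array, 2223 of 20489 tested probes were higher in NPK (10.8%) and 2479 were lower (12.1%) by limma at an adjusted p under 0.05, where a probe past that threshold is said to be called. Of the called probes, 74.3% had NPK and NPK_1Month arrays that did not overlap, against 20.98% of all tested probes. Several detected probes read 4243 genes, and 1802 of these had at least 1 called probe. Among the 1802, 242 genes were supported as higher in NPK (5.7% of the 4243) and 237 as lower (5.59%), together 26.6% of the genes with a call. In 1225 genes (28.9% of the 4243) exactly 1 of several probes was called, 538 higher and 687 lower. In 98 genes probes were called in both directions. All detected probes of a gene, called or not, changed in 1 direction in 403 of the 479 supported genes. With chip as a random block, 117 of the 242 and 69 of the 237 remained supported. A further 7000 genes were read by 1 detected probe, so that support could not be assessed, and 824 of these were called higher (11.8%) and 695 lower (9.93%). The median change was -0.08 over all probes and -0.05 over all genes on the log2 scale.

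The probes of a gene often disagreed. Where the brightest probe of a gene was called, the gene's other detected probes changed in the same direction in 72.3% of 1608 probe pairs, were called in that direction in 31.03% and were called in the opposite direction in 5.35%. Taken pair by pair, the change of the other probe as a share of that of the brightest had a median of 49.9%. For probes listed under the same transcript accession the same-direction share was 74.3%, and for probes of different accessions 67.3%. For comparison, NPK_3Month against NPK_1Month, which shares the NPK_1Month arrays and lies on 1 chip, had 94.2% of 1330 pairs in the same direction, 0.150% called in the opposite direction and a median of 84.2%. There 539 of 4243 genes were supported (12.7%), or 44.8% of the genes with a call, and probes were called both ways in 3 genes. Where the brightest probe was called with a change of at least 1, the same-direction share was 81.7% of 394 pairs for NPK against NPK_1Month. It was 96.1% of 819 pairs for NPK_3Month against NPK_1Month. No test of the difference between these shares was made, since genes are not replicates.

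**Figure D2:**
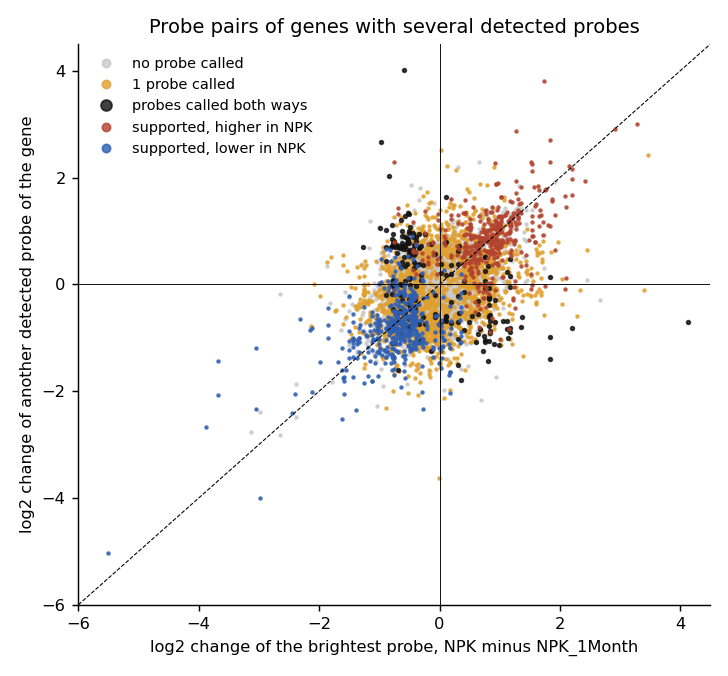
Log2 change of NPK minus NPK_1Month for the brightest probe of each gene (horizontal) and for each other detected probe of that gene (vertical), 1 point per probe pair, coloured by the gene's class, with a dashed line where both change alike. Points of supported genes lie mostly toward the upper right (242 genes) or lower left (237 genes). In 403 of these 479 genes all detected probes changed in 1 direction. Genes with 1 called probe (1225) or with probes called both ways (98) spread away from the line.

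The 8 largest supported rises in NPK were each read by 2 probes. Tomm6, a small subunit of the translocase that imports proteins through the outer mitochondrial membrane, had a log2 level of 12.40 to 12.71 over the NPK arrays (median 12.56), against 9.41, 9.70 and 9.82 in the NPK_1Month arrays, by its first probe. Its second probe gave 9.28 to 9.87 (median 9.56) in NPK, against 6.17, 6.84 and 6.91 in NPK_1Month. The groups were far apart by both probes, with changes of 2.91 ± 0.12 and 2.91 ± 0.16 (SE, limma adjusted p = 1.08e-11 and 7.71e-10). Ap2a1 encodes an alpha subunit of the AP-2 adaptor, which gathers cargo into clathrin-coated pits. Its first probe had 9.09 to 10.02 in NPK (median 9.51), against 6.53, 6.32 and 5.96 in NPK_1Month, a change of 3.28 ± 0.22 (SE, limma adjusted p = 1.06e-08). Its second probe changed by 3.00 ± 0.17 (SE, limma adjusted p = 1.11e-09), again without overlap.

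Gprc5a, an orphan G protein-coupled receptor induced by retinoic acid, had log2 levels of 11.05 to 12.07 in NPK (median 11.60), against 9.85, 9.55 and 10.03 in NPK_1Month. It rose by 1.84 ± 0.24 by that probe and by 2.70 ± 0.30 by the other (SE, limma adjusted p = 3.49e-05 and 7.43e-06), with no overlap by either. Itga5, the alpha subunit of the main fibronectin receptor, had 7.80 to 9.97 in NPK (median 8.83), against 6.55, 6.86 and 5.85 in NPK_1Month. It rose by 2.41 ± 0.35 and by 1.93 ± 0.41 (SE, limma adjusted p = 0.000104 and 0.00250), although its second probe was detected on 1 of 3 NPK_1Month arrays. Within NPK the Itga5 levels of the first probe were highest in replicate 5 and lowest in replicate 8. Its ligand fibronectin went the other way, as described below.

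Lbh, a small nuclear regulator of transcription first described in limb bud and heart, rose by 3.80 ± 0.39 by 1 probe and by 1.73 ± 0.45 by the other (SE, limma adjusted p = 2.92e-06 and 0.00942). The probes thus gave the same direction and sizes that differed by more than their errors. By the second of these probes NPK replicate 3, at 10.12, lay below NPK_1Month replicate 2, at 10.50, and without NPK_1Month replicate 3 the support of Lbh was lost, at a median change over probes of 2.51. Mospd3, named for a domain of the motile sperm protein, rose by 2.16 ± 0.26 and 2.21 ± 0.29 (SE, limma adjusted p = 1.76e-05 and 3.91e-05). Ip6k2, a kinase that adds a phosphate to inositol hexakisphosphate, rose by 1.84 ± 0.27 by 1 probe (SE, limma adjusted p = 9.76e-05). Its other probe was detected on no NPK_1Month array and was at least 3.58-fold higher in NPK. Prss32, a serine protease, rose by 2.21 ± 0.55 and 2.16 ± 0.45 (SE, limma adjusted p = 0.00701 and 0.00221). The NPK_1Month arrays disagreed on Prss32, with 8.64, 5.52 and 7.87 by the first probe, and without NPK_1Month replicate 2 its median change was 1.49 and the support was lost.

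For the 2 genes with the firmest rises, NP tumours lay near NPK and NPK_3Month tumours near NPK_1Month. The mean log2 level of the first Tomm6 probe was 12.56 in NPK, 10.00 in NPK_3Month and 12.25 in NP, against 9.64 in NPK_1Month. That of the first Ap2a1 probe was 9.55 in NPK, 6.55 in NPK_3Month and 8.98 in NP, against 6.27 in NPK_1Month. Itga5 differed from this, with 8.83 in NPK, 8.30 in NPK_3Month and 6.93 in NP, against 6.42 in NPK_1Month. Taking the brightest probe of each of the 242 supported higher genes, the NPK_3Month mean lay on the NPK_1Month side of the midpoint between NPK and NPK_1Month in 76.0%, the NP mean lay on the NPK side in 77.3%, and both held in 59.1%. Among the 237 supported lower genes these shares were 68.8%, 81.9% and 57.4%. Among the 2441 genes with several probes and none called they were 55.1%, 60.8% and 34.5%. NPK_3Month shares its chip with NPK_1Month, and NP shares no chip with any NPK group. Another array property nevertheless sets NP beside NPK, and NPK_3Month beside NPK_1Month. Every NP and NPK array had an upper quartile of 8.60 to 8.64 in the authors' normalized log2 values. For NPK_1Month and NPK_3Month arrays these quartiles lay lower, at 8.34 to 8.35. The part of this division in the shares was not tested. Stage, genotype and chip cannot be told apart in these shares.

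**Figure D3:**
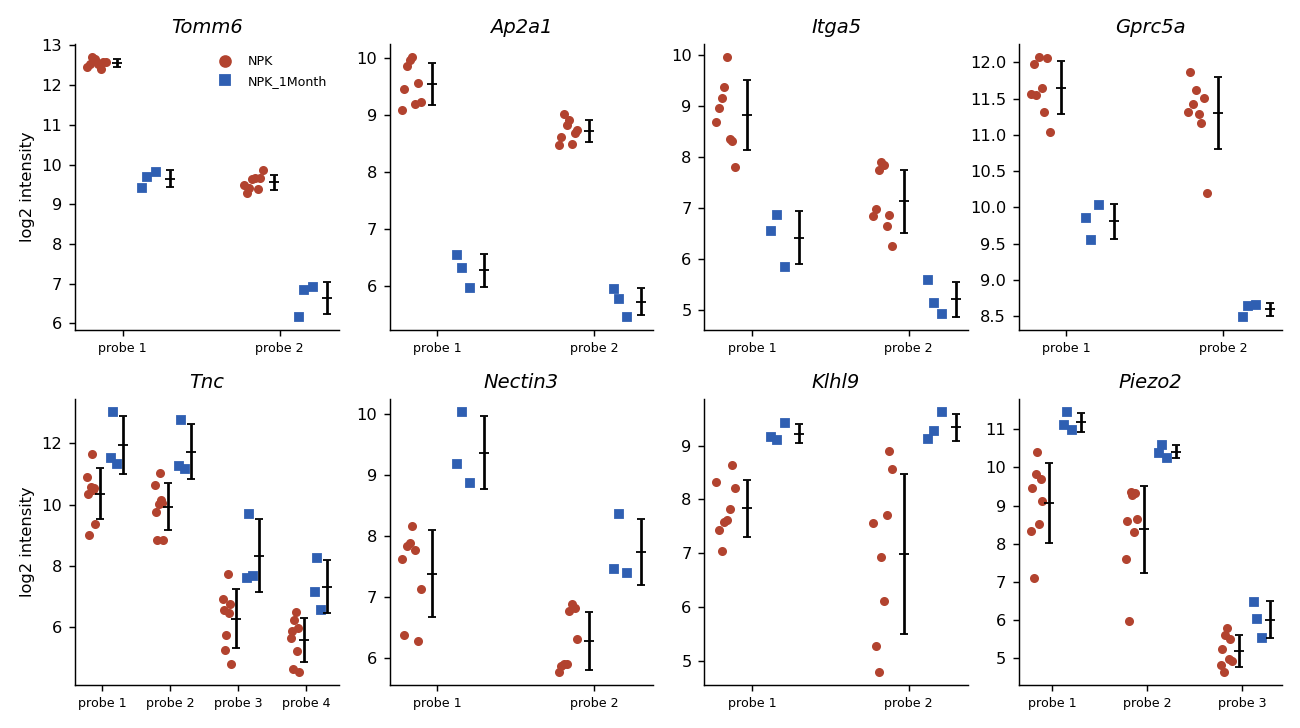
Log2 intensity of 8 supported genes, each probe shown apart in order of its NPK mean, with NPK arrays (circles, n = 8) left of NPK_1Month arrays (squares, n = 3) and black bars for mean ± SD. The upper row holds genes higher in NPK by every probe, such as Tomm6 at 12.56 against 9.64 by its first probe, and the lower row genes lower in NPK by every probe, such as Tnc.

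The 8 largest supported falls in NPK included 4 genes known from striated muscle. Tcap (telethonin, which caps titin), Ckmt2 (the creatine kinase of muscle mitochondria), Cmya5 (myospryn, a scaffold of muscle cells) and Myh8 (the perinatal myosin heavy chain) were 4 of the 8 genes with the largest falls, although the skeletal muscle list was set aside when these 8 were chosen. Tcap had 4.77 to 9.06 in NPK (median 5.50), against 10.41, 10.28 and 9.71 in NPK_1Month, a change of -3.88 ± 0.78 (SE, limma adjusted p = 0.00158), and NPK replicates 4 and 5 were the highest of the NPK arrays at 9.06 and 8.96. Myh8 fell by 3.68 ± 0.72, 2.08 ± 0.36 and 1.43 ± 0.46 by its 3 probes (SE, limma adjusted p = 0.00127, 0.000456 and 0.0304). Ckmt2 fell by 2.45 ± 0.36 by 1 probe (SE, limma adjusted p = 0.000102) and was at least 2.44-fold lower by the other, which no NPK array detected. Cmya5 fell by 2.40 ± 0.54 by 1 probe (SE, limma adjusted p = 0.00350), with NPK replicate 4 above NPK_1Month replicate 3, and was at least 1.53-fold lower by the other. In each of these 4 genes NPK replicate 4 or 5 was the highest NPK array by the brightest probe, as it was in the skeletal muscle level given above, whose part in these falls was not tested.

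The skeletal muscle list itself was lower in NPK in nearly all of its members. Of its 14 tested genes, 4 were supported lower, all of them among the 6 with several probes, 8 more were called lower by their 1 probe, and Actn2 had 1 of several probes called. The median change over the list was -2.96, against -0.05 over all genes. Myl1, a light chain of fast muscle myosin, had 5.46 to 11.83 in NPK (median 6.15), against 12.93, 12.70 and 12.71 in NPK_1Month. It fell by 5.51 ± 1.16 and by 5.04 ± 0.66 by its 2 probes (SE, limma adjusted p = 0.00239 and 3.56e-05), with NPK replicates 4 and 5 the highest of their group. Mylpf, the fast regulatory light chain, fell by 4.00 ± 0.69 and 2.98 ± 0.56 (SE, limma adjusted p = 0.000484 and 0.000924). Ttn, which encodes the giant sarcomere spring titin, fell by 3.05 ± 0.68 and 2.34 ± 0.46 by the 2 probes that NPK arrays detected (SE, limma adjusted p = 0.00354 and 0.00132). Without NPK replicates 4 and 5, 13 of the 14 genes were called lower and the list's median change was -3.74. The count was 8 without NPK_1Month replicate 2, and 9 without NPK_1Month replicate 1 or with chip as a random block, with median changes of -2.81, -2.88 and -3.15.

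The other large falls were in genes outside the muscle list. Tnc encodes tenascin C, a matrix glycoprotein of remodelling stroma, and all 4 of its probes were called lower, by 1.59 ± 0.46, 1.81 ± 0.42, 2.06 ± 0.50 and 1.74 ± 0.37 (SE, limma adjusted p = 0.0179, 0.00476, 0.00585 and 0.00262). Its brightest probe had 8.99 to 11.64 in NPK (median 10.51), against 11.51, 13.01 and 11.31 in NPK_1Month, so that only NPK replicate 5 reached into the NPK_1Month range. NPK_1Month replicate 2 stood highest by every Tnc probe, and without it the median change was -1.28 and the support was lost. Nectin3, a cell adhesion molecule of adherens junctions, had 6.26 to 8.16 in NPK (median 7.70), against 9.19, 10.04 and 8.88 in NPK_1Month. It fell by 1.99 ± 0.42 and 1.46 ± 0.29 (SE, limma adjusted p = 0.00224 and 0.00135) with no overlap by either probe, and its NPK_3Month mean was higher still, at 11.14.

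Klhl9, an adaptor of a cullin ubiquitin ligase, had 7.05 to 8.64 in NPK (median 7.72), against 9.15, 9.10 and 9.42 in NPK_1Month. Its changes were -1.39 ± 0.29 by that probe and -2.35 ± 0.66 by the other (SE, limma adjusted p = 0.00218 and 0.0145). The second probe was spread widely within NPK, from 4.80 to 8.90, and lost its call with chip as a random block (adjusted p = 0.0839) and without NPK_1Month replicate 2 or 3 (median changes of -1.92 and -1.75). Piezo2, a mechanically gated ion channel, fell by 2.11 ± 0.59 and 2.02 ± 0.62 by the 2 probes that NPK arrays detected (SE, limma adjusted p = 0.0143 and 0.0244). Neither Piezo2 probe kept its call with chip as a random block (adjusted p = 0.0915 and 0.131), at a median change of -1.96 there against -2.02 in the fit without the block, and support was also lost without NPK_1Month replicate 1 or 2 (median changes of -2.03 and -1.94).

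The genes of this paragraph and the next were chosen for the widest gaps between a called and an uncalled probe. They do not show how common such gaps are. Zc3h3, a zinc finger protein of mRNA export, had 8.35 to 8.76 in NPK (median 8.58), against 5.93, 5.83 and 6.37 in NPK_1Month, by the probe that was called (change 2.52 ± 0.17 SE, limma adjusted p = 1.64e-08). By its brightest probe the same gene had 9.74 to 10.38 in NPK, against 10.06, 9.99 and 10.16 in NPK_1Month, a change of 0.03 with a 95% interval of -0.33 to 0.39. Chd4, the ATPase of a chromatin remodelling complex that deacetylates histones, rose by 1.38 ± 0.22 by its brightest probe (SE, limma adjusted p = 0.000219), while its other probes gave -1.34 and -0.20 and did not pass. By the probe that gave -1.34, all NPK arrays lay at or below 8.05 and all NPK_1Month arrays at or above 8.93, so the direction between groups turned with the probe.

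Ctnnb1 encodes beta-catenin, which links cadherins to the cytoskeleton and carries Wnt signals. Its 2 brighter probes gave changes of 0.08 and 0.19, with 95% intervals of -0.20 to 0.36 and -0.09 to 0.47. The remaining probe had 8.53 to 9.78 in NPK (median 9.05), against 11.40, 11.11 and 11.08 in NPK_1Month, a change of -2.13 ± 0.44 (SE, limma adjusted p = 0.00202). Pigt, a subunit of the transamidase that attaches GPI anchors, fell by 1.86 ± 0.39 by 1 probe (SE, limma adjusted p = 0.00238) and had 0.43 by the other, which did not pass. Nfic, a CTF/NF-I family transcription factor, was supported as higher by 2 of 4 probes (2.27 ± 0.21 and 0.93 ± 0.25 SE, limma adjusted p = 5.89e-07 and 0.0120), yet the other 2 gave -0.11 and 0.39. Without NPK_1Month replicate 1 the support of Nfic was lost, at a median change of 0.67, as it was without NPK replicates 1 to 5, at 0.25.

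In 4 split genes the opposing changes were largest. Rad23b, a shuttle factor of nucleotide excision repair and the proteasome, rose by 1.83 ± 0.17 by 1 probe and fell by 1.40 ± 0.44 by another (SE, limma adjusted p = 5.79e-07 and 0.0287), with 0.14 by the remaining probe. E2f6, a repressive E2F factor, rose by 1.11 ± 0.25 by the probe that read lowest in NPK_1Month and fell by 1.10 ± 0.24 and 0.79 ± 0.17 by 2 others (SE, limma adjusted p = 0.00330, 0.00344 and 0.00319). Lss, which closes the sterol ring in cholesterol synthesis, rose by 1.14 ± 0.22 by its bright probe (SE, limma adjusted p = 0.00138) and was at least 1.15-fold lower by its dim one, detected on no NPK array. That dim probe was tested only because all 3 NPK_1Month arrays detected it, so its call is no separate support for a fall. Wnt7b, a Wnt ligand of epithelia, had 9.85 to 11.03 in NPK (median 10.38), against 11.31, 11.49 and 11.29 in NPK_1Month, by 1 probe and 8.38 to 9.40 (median 8.81), against 7.79, 8.01 and 7.71, by the other. The groups did not overlap by either Wnt7b probe, and the changes were -0.997 ± 0.25 and 1.06 ± 0.34 (SE, limma adjusted p = 0.00733 and 0.0281). The rise of Wnt7b was not called without any 1 of the NPK_1Month arrays (0.99 to 1.15 over all runs with an array left out) or with chip as a random block (adjusted p = 0.130).

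**Figure D4:**
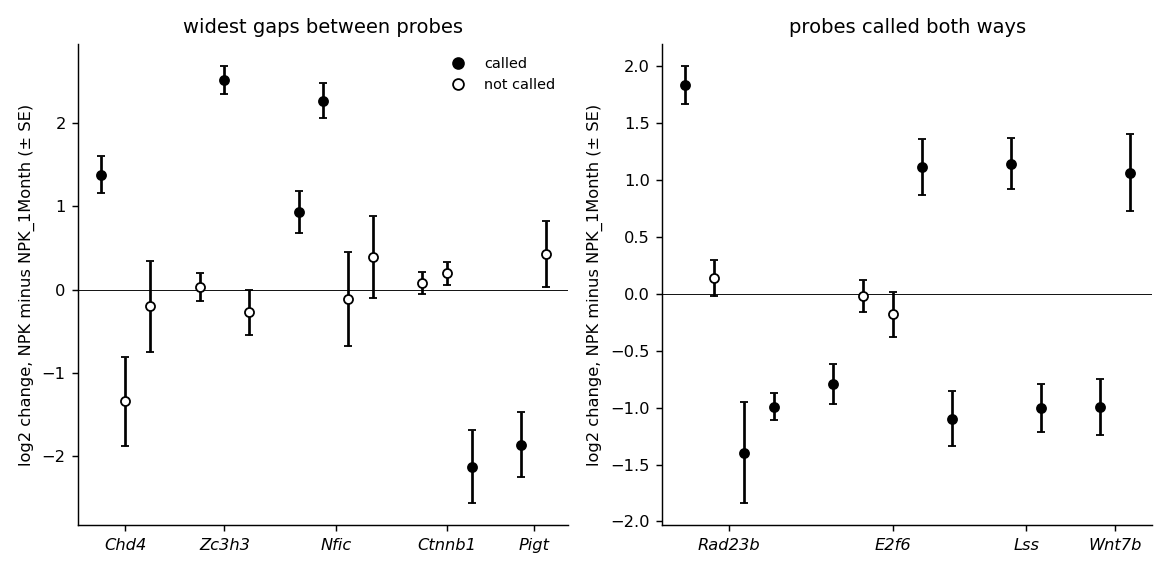
Log2 change of NPK minus NPK_1Month for every tested probe of the 5 genes with the widest gap between a called and an uncalled probe (left) and of 4 genes with probes called both ways (right), brightest probe first within a gene. Points are fitted changes, bars their SE, and filled points are called; Zc3h3 shows 2.52 beside 0.03 and Wnt7b -0.997 beside 1.06.

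Genes read by 1 detected probe held larger changes still, which no second probe could check. The genes in this paragraph were chosen after their values were seen, as the largest changes of this kind. Anpep, the membrane aminopeptidase CD13, had 11.61 to 12.70 in NPK (median 11.98), against 8.78, 8.06 and 8.79 in NPK_1Month (3.52 ± 0.31 SE, limma adjusted p = 4.21e-07). Scaf1, a splicing-related partner of RNA polymerase II, had 9.83 to 10.48 in NPK, against 7.02, 6.65 and 7.18 in NPK_1Month (3.20 ± 0.16 SE, limma adjusted p = 3.10e-10). Acsf2, a mitochondrial acyl-CoA synthetase, rose by 3.07 ± 0.40, Scnn1a, a subunit of the epithelial sodium channel, by 2.82 ± 0.42, and Bcat2, the mitochondrial aminotransferase of branched-chain amino acids, by 2.75 ± 0.29 (SE). None of these 5 had overlapping groups. Atp6v1d, a subunit of the vacuolar proton pump, rose by 3.00 ± 0.58 (SE, limma adjusted p = 0.00123), but NPK_1Month replicate 3, at 12.11, lay within the NPK range of 12.07 to 12.53 while the other NPK_1Month arrays stood at 8.35 and 7.39. Its change was 4.41 without NPK_1Month replicate 3 and 2.05 without NPK_1Month replicate 2. The largest falls of this kind were in Atp2a1, Tnnc2, Myl3, Acta1, Car3 and Sln, all known from muscle. The call of Acta1, the skeletal muscle actin, was lost without any 1 of the NPK_1Month arrays (-4.98 to -3.93 over all runs with an array left out). Car3, a carbonic anhydrase of slow muscle and fat, stood at 4.65 to 5.39 in 7 NPK arrays and at 8.17 in NPK replicate 3, against 11.14, 8.64 and 9.20 in NPK_1Month.

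Of the factor named in the study's title and its 2 relatives, 1 probe of Etv1 passed the test. Etv4, a DNA-binding regulator of the PEA3 group of ETS factors, had 6.75 to 8.90 in NPK (median 7.64), against 7.74, 8.51 and 6.85 in NPK_1Month. The groups overlapped, and the change of 0.10 ± 0.43 (SE) had a 95% interval of -0.80 to 1.00 and did not pass (limma adjusted p = 0.891). Etv5 did not pass by either probe, with changes of -0.07 (95% interval -0.72 to 0.58) and -0.13 (-0.65 to 0.39). Etv1 fell by 1.16 ± 0.34 by 1 of 3 probes (SE, limma adjusted p = 0.0186), which 2 of 8 NPK arrays detected, and its other probes gave -0.84 and 0.02 and did not pass. That call was lost with chip as a random block (adjusted p = 0.111) and without NPK_1Month replicate 1 or 2 (changes of -1.05 and -1.01). Mean Etv4 was 7.80 in NPK, 9.52 in NPK_3Month and 5.66 in NP, against 7.70 in NPK_1Month.

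Genes that respond to RAS-MAPK signalling, a kinase cascade that induces feedback inhibitors and early transcription factors, had 1 called member. Among the 18 tested this was Phlda1, a pleckstrin-homology domain protein, at 13.58 to 14.50 in NPK (median 14.28), against 12.84, 13.14 and 13.16 in NPK_1Month (1.10 ± 0.22 SE, limma adjusted p = 0.00186, 1 probe). The list's median change was 0.10. The immediate early genes, which are transcribed quickly after a stimulus, had 15 tested members and a median change of 0.70. Klf4 was supported as higher by 2 of 3 probes (1.04 ± 0.30 and 0.83 ± 0.25 SE, limma adjusted p = 0.0185 and 0.0246), and its support was lost without any 1 of the NPK_1Month arrays (0.71 to 0.95 over all runs with an array left out). Fosb, Junb, Jund and Zfp36, each read by 1 probe, were called higher, and Klf6 had 1 of several probes called lower. Of all genes read by 1 probe 11.8% were called higher, and of those read by several 5.7% were supported higher. The count of 5 genes supported or called higher by their 1 probe was 3 without NPK_1Month replicate 2 and with chip as a random block. Junb, an AP-1 subunit, had 11.58 to 12.53 in NPK (median 11.93), against 10.45, 10.77 and 10.36 in NPK_1Month (1.45 ± 0.20 SE, limma adjusted p = 7.09e-05). Jund, another AP-1 subunit, rose by 2.12 ± 0.24 (SE, limma adjusted p = 1.02e-05), with no overlap.

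Of 19 tested matrix remodelling genes none was called higher (0 by limma, and 0 at an unadjusted p under 0.05), Tnc and Fn1 were supported lower, Lox and Thbs1 were called lower by their 1 probe and Timp3 by 1 of several. The list's median change was -0.38. Of all genes read by 1 probe 9.93% were called lower, and of those read by several 5.59% were supported lower. Fn1, fibronectin, had 11.61 to 14.56 in NPK (median 12.81), against 14.72, 15.24 and 13.24 in NPK_1Month, by its brightest probe. It fell by 1.62 ± 0.56 and 2.53 ± 0.62 by 2 of 3 probes (SE, limma adjusted p = 0.0451 and 0.00679), with overlap by both. The support of Fn1 was lost in 7 of 11 runs with an array left out (median changes of -2.19 to -1.20), without NPK replicate 1, 2, 3, 7 or 8 or NPK_1Month replicate 1 or 2. Thbs1, the matrix protein thrombospondin, fell by 1.73 ± 0.53 (SE, limma adjusted p = 0.0246) and lost its call without NPK_1Month replicate 2 or 3 (-1.47 and -1.68). Lox, which crosslinks collagen, fell by 1.42 ± 0.48 (SE, limma adjusted p = 0.0395) and lost its call in 7 of 11 such runs (-1.62 to -1.04). Without NPK_1Month replicate 2 no matrix gene was supported or called by its 1 probe (0 genes). With chip as a random block 1 was, Tnc, and with muscle and seminal vesicle levels as covariates none was (0 genes).

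Of 15 mesenchymal transition genes, Itga5 was supported as higher and Tgfb1 was called higher by its 1 probe, and the median change was -0.19. Over all genes, 11.8% of those read by 1 probe were called higher. Of those read by several, 5.7% were supported higher and 28.9% had exactly 1 called. Zeb2, a repressor of E-cadherin, was at least 1.73-fold higher by 1 of 2 probes, which no NPK_1Month array detected. Itgav, an integrin subunit, and Prrx1, a homeobox factor of mesenchyme, fell by 0.615 ± 0.20 and 1.03 ± 0.33, each by 1 of 3 probes (SE, limma adjusted p = 0.0329 and 0.0291). Tgfb1, the growth factor TGF-beta, had 8.94 to 10.11 in NPK (median 9.52), against 7.57, 8.23 and 7.02 in NPK_1Month (1.88 ± 0.26 SE, limma adjusted p = 7.22e-05). Vim, the intermediate filament of mesenchymal cells, had 10.38 to 11.82 in NPK, against 11.77, 12.54 and 11.02 in NPK_1Month, and its change of -0.75 (95% interval -1.44 to -0.07) did not pass after adjustment (limma adjusted p = 0.102). Of 15 fibroblast and collagen genes, Col1a1, a chain of type I collagen, was called higher by 1 probe (1.54 ± 0.52 SE, limma adjusted p = 0.0388), a call lost in 7 of 11 runs with an array left out (1.21 to 1.93). Col6a2, a chain of type VI collagen, rose by 2.03 ± 0.46 by 1 of 2 probes (SE, limma adjusted p = 0.00396), and the other gave -0.37. Col3a1, a chain of type III collagen, fell by 1.08 ± 0.33 by 1 of 2 probes (SE, limma adjusted p = 0.0240). The median change over the list was 0.03, and 8 of its 15 genes were above 0. Smtn, smoothelin of contractile smooth muscle, was supported as higher by 2 of 3 probes (1.54 ± 0.29 and 1.28 ± 0.30 SE, limma adjusted p = 0.000976 and 0.00492), while 8 of 9 smooth muscle genes were not called.

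Few epithelial genes passed the test. Of 22 tested luminal and general epithelial genes 19 had no called probe and the median change was 0.15. Of all genes read by 1 probe 11.8% were called higher and 9.93% lower, and of those read by several 28.9% had exactly 1 called. Cdh1, E-cadherin, had 11.47 to 11.87 in NPK (median 11.64), against 11.36, 11.43 and 11.46 in NPK_1Month, and its probes gave 0.23 (95% interval -0.22 to 0.69) and -0.98 (-1.76 to -0.20), neither past the threshold (limma adjusted p = 0.465 and 0.0643). Esrp1, a splicing regulator of epithelial cells, had 10.30 to 13.21 in NPK (median 12.43), against 13.81, 13.46 and 13.58 in NPK_1Month. All NPK arrays lay lower, and its 1 probe fell by 1.76 ± 0.52 (SE, limma adjusted p = 0.0198), a call lost with chip as a random block (adjusted p = 0.104) and without any 1 of the NPK_1Month arrays (-1.54 to -1.95 over all runs with an array left out). NPK replicates 4, 5 and 7 were the lowest in Esrp1, at 10.30, 10.77 and 10.74. Elf3, an epithelial ETS factor, rose by 1.43 ± 0.26 by 1 of 3 probes (SE, limma adjusted p = 0.000725), with 0.88 and 1.04 by the others, and Prom1 was called lower by 1 of several.

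Of 12 basal genes Itga6, a laminin receptor subunit, fell by 1.35 ± 0.34 by 1 of 3 probes (SE, limma adjusted p = 0.00771), with -1.10 and -0.05 by the others. Itgb4, the integrin subunit that pairs with it, fell by 0.735 ± 0.20 by 1 of 2 probes (SE, limma adjusted p = 0.0107). Krt15, a basal keratin, rose by 1.34 ± 0.48 (SE, limma adjusted p = 0.0481), a call lost in 8 of 11 runs with an array left out. The median change over the basal list was 0.51, and 9 of its 12 genes were above 0. Over all genes, 11.8% of those read by 1 probe were called higher, and 28.9% of those read by several had exactly 1 called. Of 9 prostate secretory and androgen response genes and of 10 seminal vesicle genes none was called by limma (0 of each), and 1 and 5 genes had a probe at an unadjusted p under 0.05, all lower. The seminal vesicle genes nevertheless had a median change of -3.11. Svs1, a seminal vesicle secretory protein, had 4.84 to 14.999 in NPK (median 9.03), against 14.08, 14.62 and 11.58 in NPK_1Month, a change of -4.10 with a 95% interval of -7.34 to -0.85 (limma adjusted p = 0.0629). Spink1, a protease inhibitor, had 7.65 to 15.43 in NPK (median 10.02), against 14.69, 15.45 and 12.33 in NPK_1Month (-3.33, 95% interval -6.25 to -0.41, limma adjusted p = 0.0916). Without NPK replicates 1 to 5, 6 of the 10 seminal vesicle genes were called lower and the median change was -5.05. Without NPK replicates 6 to 8 none of them was called (0 genes) and the median change was -1.90. Without NPK replicate 3 alone 5 were called lower, and without NPK replicate 1 alone 2 were. None of 4 erythroid, 5 adipocyte and 5 nerve and glia genes was called by limma (0 genes; 0, 0 and 1 at an unadjusted p under 0.05), with median changes of -0.55, -0.85 and -0.53. Of 5 urothelial genes Upk1a, a uroplakin, rose by 2.22 ± 0.47 by 1 of 2 probes (SE, limma adjusted p = 0.00238), and the other gave 0.12.

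A few immune genes passed the test, in both directions. Cd74, the invariant chain that guides class II antigen presentation, was supported as higher by all 3 of its probes. By the probe with the smallest adjusted p it had 13.08 to 14.54 in NPK (median 14.21), against 12.65, 13.20 and 12.54 in NPK_1Month, with NPK replicate 3 the only NPK array below an NPK_1Month array. It rose by 1.32 ± 0.27, 1.14 ± 0.28 and 1.50 ± 0.32 (SE, limma adjusted p = 0.00197, 0.00647 and 0.00261). Tap1 was called higher by its 1 probe and H2-D1 by 1 of several, and the other 13 of 16 antigen presentation genes had no called probe. The shares over all genes were 11.8% called higher among those read by 1 probe. Among those read by several, 5.7% were supported higher and 28.9% had exactly 1 called. Of 9 T and NK cell genes Zap70, the kinase of the T cell receptor, rose by 1.71 ± 0.29 by 1 of 2 probes (SE, limma adjusted p = 0.000425), with 0.80 by the other. Ccl5 and Cd3e were each called higher by 1 probe, and the list's median change was 0.77.

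Of 7 B and plasma cell genes Cxcl13, a chemokine that attracts B cells, was the 1 called member, and it fell by 2.56 ± 0.75 (SE, limma adjusted p = 0.0185). It stood at 6.60 to 9.61 in NPK (median 8.44), against 11.05, 11.60 and 9.85 in NPK_1Month, and its call was lost without NPK_1Month replicate 1 or 2 (-2.46 and -2.18). The other 6 genes of this list were above 0, and its median change was 0.38. For the lists of this paragraph, the shares over all genes read by 1 probe were 11.8% called higher and 9.93% lower. Exactly 1 probe was called in 28.9% of all genes read by several. Of 16 macrophage genes Csf1r, the receptor of a macrophage growth factor, and Adgre1, the F4/80 antigen, rose by 1.09 ± 0.33 and 0.893 ± 0.30, each by 1 of several probes (SE, limma adjusted p = 0.0217 and 0.0395). The median change over the macrophage list was 0.23, and 11 of its 16 genes were above 0. Lyz1, a lysozyme, fell by 2.03 ± 0.43 by 1 of 3 probes (SE, limma adjusted p = 0.00244), a dim probe that 1 of 8 NPK arrays detected, and its brightest probe gave -0.52. Without NPK_1Month replicate 1, which was the highest by that dim probe, its change was -1.30. None of 9 neutrophil genes was called by limma (0 genes; 1 at an unadjusted p under 0.05), with a median change of 0.93. Without NPK replicates 1 to 5, 5 of the 9 were called higher and the median change was 1.30, and without NPK replicates 4 and 5, which had the highest skeletal muscle levels of NPK, 4 were. Without NPK replicate 4 alone 2 were called, and without NPK replicate 5 alone 1 was. Without NPK replicates 6 to 8 no neutrophil gene was called (0 genes) and the median change was 0.63. Of 17 interferon response genes Irf7, an interferon regulatory factor, was called higher (1.50 ± 0.53 SE, limma adjusted p = 0.0489), a call lost in 8 of 11 runs with an array left out (1.11 to 2.02). Of 20 cytokines and chemokines Csf2, the cytokine GM-CSF, fell by 1.34 ± 0.35 (SE, limma adjusted p = 0.00954) and lost its call without NPK_1Month replicate 2 (-1.14). Lif, a cytokine of the interleukin 6 family, rose by 0.674 ± 0.20 by 1 of 2 probes (SE, limma adjusted p = 0.0199). The median change over this list was 0.37, and 12 of its 20 genes were above 0. Il1b, an inflammatory cytokine, had 9.11 to 12.78 in NPK, against 9.09, 9.01 and 10.55 in NPK_1Month, and did not pass (1.62, 95% interval 0.28 to 2.97, limma adjusted p = 0.0737). It was called higher without NPK replicate 4 (1.92), without NPK replicate 5 (1.88), without both (2.27) and without NPK replicates 1 to 5 (2.34).

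Most called members of the metabolic lists rested on 1 probe per gene. Of 22 respiratory chain genes, Cox5a, Cox6c, Cyc1, Ndufb9 and Uqcrc1 were called higher by their 1 probe, Atp5a1 and Atp5j by 1 of several, and none was called lower by limma (0 genes; 1 at an unadjusted p under 0.05). Of all genes read by 1 probe 11.8% were called higher, and of all genes read by several 28.9% had exactly 1 called. The list's median change was 0.29. Uqcrc1, a core subunit of complex III, had 11.89 to 12.57 in NPK (median 12.31), against 11.30, 11.09 and 11.33 in NPK_1Month (1.02 ± 0.15 SE, limma adjusted p = 9.49e-05). Of 18 glycolysis and hypoxia genes 3 were called higher by their 1 probe (Aldoa, Ankrd37 and Gapdh), 4 by 1 of several, and none lower by limma (0 genes; 1 at an unadjusted p under 0.05). The count of 3 was 0 without NPK_1Month replicate 2, and 1 without NPK_1Month replicate 1, without NPK replicate 7 or with chip as a random block. Pkm, a pyruvate kinase, rose by 1.50 ± 0.29 by its bright probe (SE, limma adjusted p = 0.00135) and had -0.20 by a dim one. Srebf1, a master regulator of lipid synthesis, rose by 1.21 ± 0.19 (SE, limma adjusted p = 0.000170), while the 12 sterol and fatty acid genes had a median change of -0.07. Dhcr7 was also called higher and Scd2 lower, each by its 1 probe, and Insig1 lower by 1 of several.

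Of 18 endoplasmic reticulum stress genes Pdia6, a protein disulfide isomerase, fell by 0.86 ± 0.19 by 1 of 2 probes (SE, limma adjusted p = 0.00326), and the other gave 0.42. Herpud1 was also called lower by 1 of several probes and Pdia4 by its 1 probe, and the list's median change was -0.23. Rps3, a protein of the small ribosomal subunit, was supported as higher (0.51 ± 0.13 and 1.22 ± 0.21 SE, limma adjusted p = 0.00912 and 0.000479), while Rpl19 was called higher and Rpl3 lower, each by its 1 probe, and 10 of 13 ribosomal protein genes had no called probe; without NPK_1Month replicate 2 its support was lost at a median change of 0.78. Of 11 S100 genes, which encode small calcium-binding proteins, S100a1, S100a3, S100a11 and S100a13 were called higher by 1 probe each and none lower by limma (0 genes, and 0 at an unadjusted p under 0.05). Of all genes read by 1 probe, 11.8% were called higher. The count was 1 without NPK_1Month replicate 1, without NPK_1Month replicate 2 and with chip as a random block. S100a1 had 12.67 to 14.12 in NPK (median 13.07), against 11.25, 11.17 and 11.58 in NPK_1Month (1.82 ± 0.25 SE, limma adjusted p = 5.63e-05).

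Growth control genes went both ways. Of 22 cell cycle genes E2f1, an activating E2F factor, rose by 0.92 ± 0.18 (SE, limma adjusted p = 0.00136), Mcm3 was also called higher by its 1 probe, and Tk1 and Tyms by 1 of several, with a median change of 0.15 over the list. Of 14 D cyclin and CDK inhibitor genes Ccnd3, a D-type cyclin, rose by 0.80 ± 0.15 by 1 of 2 probes (SE, limma adjusted p = 0.00116), with 0.42 by the other. The kinase Cdk6 was called lower by its 1 probe (-1.34 ± 0.32 SE, limma adjusted p = 0.00511), and Cdk4, Cdkn2a and Rb1 each by 1 of several. The list's median change was -0.25, and 4 of its 14 genes were above 0. Of 14 FOXO target genes Cited2, a transcriptional coregulator, was supported as higher by 2 of 3 probes (1.57 ± 0.30 and 1.34 ± 0.26 SE, limma adjusted p = 0.00113 and 0.00136), Cat was called higher, and Insr, Irs2 and Klf9 were called lower, each by its 1 probe. The count of falls was 1 without NPK_1Month replicate 1, without NPK_1Month replicate 2 and with chip as a random block. For all lists of this paragraph, the shares over all genes read by 1 probe were 11.8% called higher and 9.93% lower. Among all genes read by several, 5.7% were supported higher and 28.9% had exactly 1 called. Kdr, a VEGF receptor of endothelium, was detected on no NPK array and was at least 1.05-fold lower. Its probe entered the test only because all 3 NPK_1Month arrays detected it. The call of Kdr (limma adjusted p = 0.000970) is therefore no separate support for a fall. Eng, a TGF-beta coreceptor, was called higher and Cldn5, a claudin of endothelium, lower, each by its 1 probe, and 11 of 14 endothelial genes had no called probe. Nras, a RAS family GTPase gene, was singled out after its values were seen. It was supported lower by 3 of 3 probes and had 11.86 to 12.47 in NPK (median 12.21), against 12.66, 12.83 and 12.61 in NPK_1Month, by the brightest (-0.51 ± 0.14 SE, limma adjusted p = 0.0133). No Nras probe kept its call with chip as a random block (adjusted p = 0.0788, 0.126 and 0.0970), at a median change of -0.87 there against -0.88 without the block, and the support was lost without NPK_1Month replicate 2 or 3 (median changes of -0.87 and -0.77).

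Genes supported as higher and as lower had different median lengths. Gene length was taken from RefSeq on the mouse assembly GRCm38 and was known for all 479 supported genes. The 242 genes higher in NPK had a median length of 13.2 kb (quartiles 7.09 and 29.4), against 50.9 kb for the 237 lower genes (24.1 and 92.3). Genes with 1 called probe and genes with none called lay between, at 26.8 and 26.7 kb. The contrast was 14.2 against 57.8 kb among genes supported with chip as a random block, 15.3 against 48.7 kb without NPK replicates 1 to 5, and 12.2 against 47.8 kb without NPK replicates 6 to 8. Within the 1 chip that holds NPK_3Month and NPK_1Month, the 266 supported higher genes had a median of 22.4 kb, against 25.9 kb for the 273 lower ones. Mean log2 level moved with the same classes, at a median of 8.96 for the supported higher genes, 8.00 for the supported lower and 8.11 for those with none called. Lengths are a description of gene lists, since genes are not independent replicates, and the part of chip or level in the contrast was not tested.

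**Figure D5:**
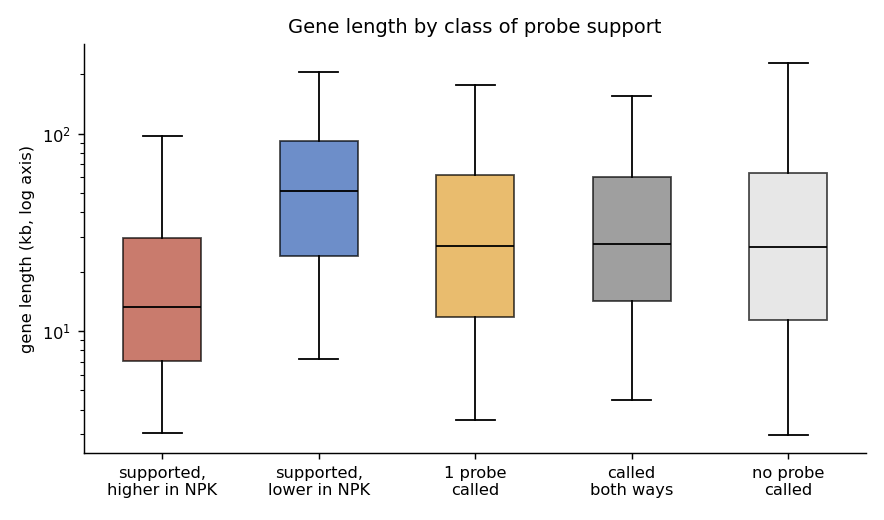
Gene length in kb on a log axis by class of probe support, for genes with several detected probes; boxes span the quartiles, lines mark medians and whiskers the 5th and 95th percentiles. Genes supported as higher in NPK have a median of 13.2 kb, those supported as lower 50.9 kb, and the other classes 26.7 to 27.5 kb.

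Detection differed with direction as well. Among the supported lower genes 42 of 237 had a called probe that no NPK array detected, and 8 had only such probes. Among the supported higher genes 20 of 242 had a called probe that no NPK_1Month array detected, and 2 had only such probes. Tested probes were those detected on at least 3 of the 11 arrays. A probe that 1 group did not detect was thus tested only through the group where it was brighter. Calls of such probes are no separate support for a change, among them those of Ip6k2, Ckmt2, Zeb2, Lss and Kdr given above as undetected in 1 group. With probes detected on all 11 arrays alone, 218 genes were supported as higher and 138 as lower. The median size of the change was 0.87 over the supported higher genes and 0.80 over the supported lower genes, and 92 and 63 of them changed by more than 1 on the log2 scale.

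Calls also depended on how chip and neighbouring tissue entered the fit. Of 80 genes examined one by one, 16 lost their call with chip as a random block and none changed direction (0 genes). Besides those given above, these were Fn1 (-1.70 with the block), Klf4 (0.91), Rps3 (0.85), Csf2 (-1.41), Cxcl13 (-2.68), Irf7 (1.55), Acta1 (-5.00), Col1a1 (1.45), Thbs1 (-1.75) and Lox (-1.40), as changes of the called probe or medians over probes, each within 1.5 times its value without the block.

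With the mean levels of the seminal vesicle and skeletal muscle lists as covariates, 101 of the 242 supported rises and 70 of the 237 supported falls remained supported. All NPK arrays lay below all NPK_1Month arrays in skeletal muscle level, so this fit cannot fully separate group from that level. Support kept or lost there does not show what neighbouring tissue contributes. Among the 8 largest rises, Tomm6, Ap2a1, Gprc5a, Itga5, Mospd3 and Ip6k2 kept their support with the covariates. Their median changes over probes were 2.90, 3.71, 2.61, 3.44, 2.35 and 2.36, against 2.91, 3.14, 2.27, 2.17, 2.18 and 2.06 without the covariates. Lbh and Prss32 lost it, at changes of 2.37 and 2.05, against 2.77 and 2.18 without the covariates. Among the 8 largest falls, Ckmt2 (-1.36) and Klhl9 (-2.98) kept it, against -2.44 and -1.87 without the covariates. Tcap (-0.74), Cmya5 (-0.89), Myh8 (-1.25), Piezo2 (-1.63), Tnc (-1.13) and Nectin3 (-1.14) lost it, against -3.28, -2.23, -2.08, -2.02, -1.77 and -1.73 without the covariates.

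Of the 80 genes, 33 lost their call without a change of direction with the covariates. In some of these the change stayed within 1.5 times its value in the fit without them, as in Cd74 (1.32), Phlda1 (1.04), Thbs1 (-1.88), Lox (-1.65), Col1a1 (2.04), Nras (-1.12), Lyz1 (-1.92), Rps3 (0.94), Pdia6 (-0.78) and Upk1a (2.04). In others it was smaller by more than that, as in Fn1 (-0.38), Csf2 (-0.51), Cxcl13 (-1.21), Irf7 (0.78), E2f1 (0.58) and Pkm (0.67). Without a filter on detection, 9 of the 80 lost their call, among them Junb (0.57), Srebf1 (0.65), Bcat2 (1.12), Smtn (1.15) and Kdr.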

How the data were processed

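RNA of 21 mouse prostate tumour samples was measured on Illumina bead arrays, 1 array per sample. Per the labels' protocols, a kit with magnetic beads gave the RNA, a Bioanalyser checked it, and an Illumina kit amplified and labelled it. The deposited non-normalized table gives an intensity per probe, with background already subtracted since values below 0 occur. The authors' normalized log2 values, per the submitters' processing notes naming BeadStudio and lumi, were used only as an alternative.

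Intensities were corrected with normexp (offset 16), quantile normalized over all 21 arrays and log2 transformed with limma 3.58.1 in R 4.3.3. A probe was detected on an array where its intensity exceeded the level that noise passes with probability 0.01, the noise SD being taken from the values below 0. The 20489 probes detected on at least 3 of the 11 arrays were tested. NP replicates 4 and 5 differed by less than other pairs and were averaged. One limma fit held all 4 groups, two-sided, with Benjamini-Hochberg adjustment over all tested probes. Of 45126 probes, 34767 had 1 gene symbol, 18 several and 10341 none.

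Named genes were the 8 largest supported rises and falls (leaving out the seminal vesicle and skeletal muscle lists), the 5 widest gaps between probes, 4 split genes, leading members of each gene list, and genes of the study itself; others of that last set are not analysed here. The members and lists were chosen with earlier results of these data known. The steps were run on simulated data with independent noise, no chip effect and the same shift for every probe of a gene. Such data do not cover the chips of the groups or the disagreement between probes.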

Additional observations from a re-analysis of the deposited data

Results flagged for a closer look

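In 7 of 80 genes examined, 1 NPK array stood apart from the other 7 by Dixon's test, which flags about 1 in 20 groups by chance. Lbh was 10.12 in NPK replicate 3, with the nearest array at 11.41. Mospd3 was 7.91 in NPK replicate 1, with the nearest at 8.27. Ckmt2 was 7.17 in NPK replicate 4, the NPK array with the highest skeletal muscle level, and the nearest was 5.59. Chd4 was 11.48 in NPK replicate 6, with the nearest at 12.19. S100a1 was 14.12 in NPK replicate 7, with the nearest at 13.35. Car3 was 8.17 and Adipoq, the fat cell hormone adiponectin, was 6.78 in NPK replicate 3, with the nearest arrays at 5.39 and 5.51.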

How the results depend on the processing

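Chip and group cannot be told apart, and the 3 NPK_1Month arrays limit every count. With chip as a random block 1151 probes were called higher and 1112 lower, and 117 and 70 genes were supported. With probes detected on all 11 arrays 1598 probes were called lower and 138 genes were supported lower. With seminal vesicle and skeletal muscle means as covariates 1618 probes were called lower, and 143 and 152 genes were supported. With array weights 3557 and 4319 probes were called, and 401 and 478 genes were supported. Requiring every detected probe to be called left 141 and 127 genes, and requiring a change of at least 1 left 77 and 60. Median scaling gave 2182 probes higher and 1973 lower, so that 52.5% of calls were higher, against 47.3% in the main setting, and the all-array detection filter gave 56.9%. The cause of these differences was not tested.

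With the replicate number as a block 166 genes were supported higher and 129 lower. Same-numbered arrays had deviations from their group means that correlated at -0.160, -0.175 and -0.142. Differently numbered arrays were not compared in this way, so these values do not settle whether the numbers pair the samples.

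Leaving out each array in turn gave 1370 to 2272 probes higher, 1349 to 2545 lower, 138 to 256 genes supported higher and 88 to 242 lower, with the fewest without NPK_1Month replicate 2. Uncalled changes near 0 turned sign: Etv4 was -0.17 without NPK replicates 1 to 5, -0.10 with the replicate block, -0.22 without NPK replicates 4 and 5 (an alternative chosen after seeing the data) and -0.33 to 0.50 over arrays left out. Etv5 was 0.26 with the covariates and -0.42 to 0.15 over arrays left out, and Cdh1 was 0.23 on its 1 probe detected on all 11 arrays. With the covariates, which were built from muscle and seminal vesicle genes, larger changes also turned sign. Il1b was -0.98, against 1.62 without the covariates, and Ckm 0.0030, against -2.91. Acta1 was 2.47 and called higher, against -4.45 and called lower without the covariates.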
